A study of Mus musculus with 6 samples.

Results

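Inflammatory and immediate early response genes are set out here by the open chromatin that differed near them between FOP mutant and wild-type mouse embryonic fibroblasts. They are 7 of the 21887 protein-coding genes annotated on the autosomes and sex chromosomes: Ptgs2, Lif, Ccl7, Il1r1, Tnfaip3, Ier3 and Klf4. The genes were chosen from regions that the authors had already listed as different, so their direction is given as a description and was not tested. A region was linked to a gene when its midpoint lay inside the gene's span in the GRCm38 annotation, or, outside all protein-coding spans, when that gene was the nearest within 100 kb. By this rule 9 listed regions belonged to the 7 genes, out of 3521 in all.

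Chromatin accessibility was measured by ATAC-seq, which reads out DNA that a transposase can reach. The 3 mutant libraries came from fibroblasts heterozygous for Acvr1 R206H, the activating change in the BMP type I receptor ALK2 that causes fibrodysplasia ossificans progressiva (FOP), a disorder of bone formation in soft tissue. The 3 wild-type libraries came from fibroblasts with both Acvr1 copies normal. Both genotypes were cultured from embryos at E13.5 (embryonic day) in serum-containing medium, and the labels name no cytokine, stimulus or other allele. The authors' deposited lists give each region's position and, through the list's name, its direction: 2965 regions gained and 556 lost accessibility in mutant cells. Neither list has a signal, a size of change or a test statistic for any region or library. Depth is therefore unknown, and the spread between libraries could not be used to judge a difference.

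Most of these genes are switched on quickly when a fibroblast meets an inflammatory signal or stress. Interleukin-1 or TNF binds its receptor, adaptor proteins and kinases release NF-kB to the nucleus, and MAP kinases activate AP-1 and other factors. The first genes to respond include transcription factors, secreted signals such as prostaglandins, cytokines and chemokines, and inhibitors that end the response. Flares of soft tissue inflammation are known to precede new bone in FOP.

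None of the 7 genes was linked to regions of both directions. The lost regions belonged to Ptgs2 with 2, Ier3 with 2 and Lif with 1. The gained regions belonged to Il1r1, Tnfaip3, Ccl7 and Klf4 with 1 each. Only Ptgs2 and Ier3, with 2 regions each, could have had both directions, since the other genes had 1 region each. Over all protein-coding genes, 1.99% were linked to a lost region, 7.27% to a gained region, 0.366% to both and 8.90% to any listed region. Of the 1947 genes with any listed region, 80 had both directions. Since the same lists chose the genes, nothing is read from these shares about the 7. Lost regions made up 5 of the 9 and 15.8% of all listed regions. The choice of genes set the first count, so it is not compared with the second.

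The sequence before the transcription start of some of these genes is shown first, for genes of both directions side by side. These are places where motifs were searched, and the listed regions lay elsewhere. Each line is the stretch of 250 bases that ends just before the start, 5′ to 3′ on the gene's own strand, from RefSeq on GRCm38.p6. The Ptgs2 stretch is chr1:150099781-150100030, that of Lif chr11:4257318-4257567 and that of Ier3 chr17:35821463-35821712, all on the plus strand. These are the genes with lost regions. For the genes with gained regions, the second Il1r1 start is preceded by chr1:40266336-40266585 on the plus strand. The farther upstream of the Tnfaip3 starts is preceded by chr10:19015411-19015660 on the minus strand. The stretches before the first Il1r1 start, the downstream Tnfaip3 start and the Klf4 start were searched but are not shown. None of them held the NF-kB motif, so the lines shown do not represent all starts of the genes with gained regions. Capitals mark a match to any of the motifs searched for.
Ptgs2: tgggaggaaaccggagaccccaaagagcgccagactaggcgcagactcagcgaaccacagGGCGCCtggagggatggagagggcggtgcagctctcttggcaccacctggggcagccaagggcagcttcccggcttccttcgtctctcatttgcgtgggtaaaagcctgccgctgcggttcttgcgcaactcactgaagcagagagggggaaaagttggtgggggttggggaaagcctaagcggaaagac
Lif: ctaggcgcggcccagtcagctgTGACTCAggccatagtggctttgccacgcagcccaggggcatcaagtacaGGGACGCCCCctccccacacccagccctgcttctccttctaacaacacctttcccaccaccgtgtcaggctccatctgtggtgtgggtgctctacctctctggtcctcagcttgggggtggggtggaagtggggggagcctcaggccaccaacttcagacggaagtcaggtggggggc
Ier3: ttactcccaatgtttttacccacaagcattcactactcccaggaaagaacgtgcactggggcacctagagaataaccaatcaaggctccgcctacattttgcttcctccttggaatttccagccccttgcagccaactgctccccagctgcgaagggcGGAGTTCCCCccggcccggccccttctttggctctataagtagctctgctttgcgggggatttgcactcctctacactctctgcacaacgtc
Il1r1: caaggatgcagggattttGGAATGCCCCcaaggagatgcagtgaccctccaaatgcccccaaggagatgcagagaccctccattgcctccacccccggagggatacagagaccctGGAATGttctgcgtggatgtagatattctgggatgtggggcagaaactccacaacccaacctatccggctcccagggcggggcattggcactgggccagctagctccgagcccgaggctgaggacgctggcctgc
Tnfaip3: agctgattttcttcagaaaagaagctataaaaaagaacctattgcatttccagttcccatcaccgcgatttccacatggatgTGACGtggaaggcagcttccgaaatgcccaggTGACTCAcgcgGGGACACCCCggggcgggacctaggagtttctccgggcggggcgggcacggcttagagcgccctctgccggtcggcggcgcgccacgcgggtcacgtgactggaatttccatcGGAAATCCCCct

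The motifs were searched on both strands: AP-1 as TGANTCA, the full cyclic AMP response element (CRE) as TGACGTCA and its half-site as TGACG, SMAD motifs as GTCTAGAC and GGCGCC, TEAD as GGAATG, and the NF-kB motif and the CArG box of serum response factor by name. A CRE half-site match lies inside every full CRE match. RefSeq promoter entries matched 6 of the 7 genes, with 8 starts in all, and Ccl7 had none. Matches describe these letters only and do not show binding.

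The NF-kB motif stood before 4 of the 8 starts, in genes of both directions. In Ier3 it lay 92 to 83 bases before the start, and in Lif 178 to 169 bases before it. In Tnfaip3 it occurred at 125 to 116 and again at 12 to 3 bases before the start, and in Il1r1 at 232 to 223 bases before the second start, where it overlaps a TEAD match. Over 21263 promoter entries of protein-coding genes, 7.91% held this motif in the same window. The genes were chosen as inflammatory and immediate early response genes, some of them known NF-kB targets. Shares over all entries are therefore background only, and no motif count was tested against them. The median share of G and C bases also differed, at 59.6% before the 8 starts and 55.6% over all entries. No listed region lay over these stretches, so the matches are not tied to the change in accessibility. The AP-1 motif was in Lif and Tnfaip3, 228 to 222 and 136 to 130 bases before the start, against 6.13% of all entries. Ptgs2 held only GGCGCC, at 190 to 185 bases before the start, a match found in 12.3% of all entries. The CRE half-site (20.2% of all entries) was before starts of Il1r1, Tnfaip3 and Klf4. No start held the full CRE (1.92% of all entries) or the CArG box (1.39%), and GTCTAGAC (0.183%) stood before the downstream Tnfaip3 start only.

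None of the 9 regions covered a start. Windows from 250 bases before to 50 bases after a start were overlapped by 0 of 5 lost and 0 of 4 gained regions of the 7 genes. Over the whole lists such overlap was also rare, with 4 of 556 lost regions (0.719%, exact 95% interval 0.196 to 1.83%) and 5 of 2965 gained regions (0.169%, 0.0548 to 0.393%). These intervals treat the listed regions as independent and measure no spread between libraries. Starts of genes without a promoter entry could not be counted. The 9 regions of the 7 genes lay at other places of each locus, 4 within 2 kb outside the gene, 2 inside it and 3 farther away.

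Ptgs2 encodes cyclooxygenase-2, the inducible enzyme that makes the prostaglandin precursor from arachidonic acid. The gene (chromosome 1, 150100031 to 150108234, plus strand) had lost regions on both sides. The nearer one, at 150108239 to 150109000, began 5 bases past the annotated end of the gene, and its midpoint was 8.59 kb after the transcription start. It is thus at the far end of the gene, not at its promoter. The other, at 150042841 to 150043613, lay 56.8 kb before the start, in the gap that separates Ptgs2 from Pla2g4a. Pla2g4a encodes the phospholipase that releases arachidonic acid, and it is the nearest other protein-coding gene, 81.9 kb from that region. The midpoints of the Ptgs2 regions were 65.4 kb apart, and no gained region lay within 100 kb of the gene. The nearest gained regions were 202 and 203 kb past it, linked to Pdc.

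Ier3 encodes a small immediate early protein induced by growth factors, TNF and NF-kB and known to modify cell survival. It is the shortest of the 7 genes, at 1.20 kb (chromosome 17, 35821713 to 35822911, plus strand), and both of its lost regions stood before its start. The region at 35819731 to 35820124 was 1.79 kb from the start and the one at 35794925 to 35795592 was 26.5 kb from it, 24.7 kb apart. Flot1, which encodes a membrane scaffold protein, was the next gene to both, at 3.39 and 28.1 kb. One more lost region, 46.8 kb on the other side, lay inside Ppp1r18 and was linked to that gene. Ptgs2 and Ier3 are among 31 genes with 2 or more lost regions (0.142% of protein-coding genes), of which 25 (0.114%) had no gained region. Each kept 1 lost region with links within 10 kb, and each 1 with non-coding genes included, so their place among these genes ends in either setting.

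Lif encodes leukaemia inhibitory factor, a cytokine of the IL-6 family that signals through the LIF receptor and gp130 to STAT3. Its lost region, at 4261130 to 4261711 on chromosome 11, was inside the gene (4257568 to 4272514, plus strand), 3.85 kb after the start. The related cytokine gene Osm, the nearest other gene, was 20.4 kb from that region and had no linked region.

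Ccl7 encodes a CC chemokine that draws monocytes. Its gained region, at 82043676 to 82044221 on chromosome 11, was 1.76 kb from the lower-coordinate end of the gene (82045712 to 82047525). It lay between Ccl7 and Ccl2, the gene of another monocyte chemokine, which was 6.50 kb away. The assignment to Ccl7 over Ccl2 rests on that difference in distance alone. Ccl2, Ccl8, Ccl11 and Ccl12, the other chemokine genes of this cluster, had no linked region.

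Il1r1 encodes the signalling receptor for interleukin-1. Its gained region, at 40243455 to 40244376 on chromosome 1, was inside the gene (40222480 to 40316201, plus strand). That span begins upstream of both starts with a promoter entry. The region was 18.8 kb after the first of these starts and 22.7 kb before the second. With 922 bp it was the widest of the 9. The adjacent receptor gene Il1rl2, which encodes the IL-36 receptor, also held 1 gained region, 36.9 kb past the end of Il1r1. Il1r2, the decoy receptor gene of the same cluster, had none, nor did Il1rl1.

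Tnfaip3 encodes A20, a ubiquitin-editing enzyme that shuts off NF-kB signalling and is itself an NF-kB target. The gene (chromosome 10, 19000910 to 19015410) is on the minus strand. Its gained region, at 18999524 to 19000335, was therefore past the 3′ end, 0.981 kb from the gene and at least 12.0 kb from either annotated start. Like the nearer Ptgs2 region, it is at the far end of a short gene, but in the opposite direction of change. No other protein-coding gene lay within 100 kb of Tnfaip3, and the next to the region was Perp at 143 kb.

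Klf4 encodes a zinc finger transcription factor that responds early to stress and serum and is known as a pluripotency factor. The gene (chromosome 4, 55527137 to 55532475) is on the minus strand. Its gained region, at 55474077 to 55474700, was 52.7 kb past the 3′ end and 82.2 kb from Rad23b, the next gene. Another gained region, 75.3 kb from Klf4, was nearer to Rad23b and was linked to that gene. On the other side, gained regions at 230 and 259 kb had Klf4 as their nearest gene but were beyond the 100 kb limit. Among linked regions the farthest was that of Ptgs2 at 56.8 kb, so no member lay close to the limit.

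**Figure D1:**
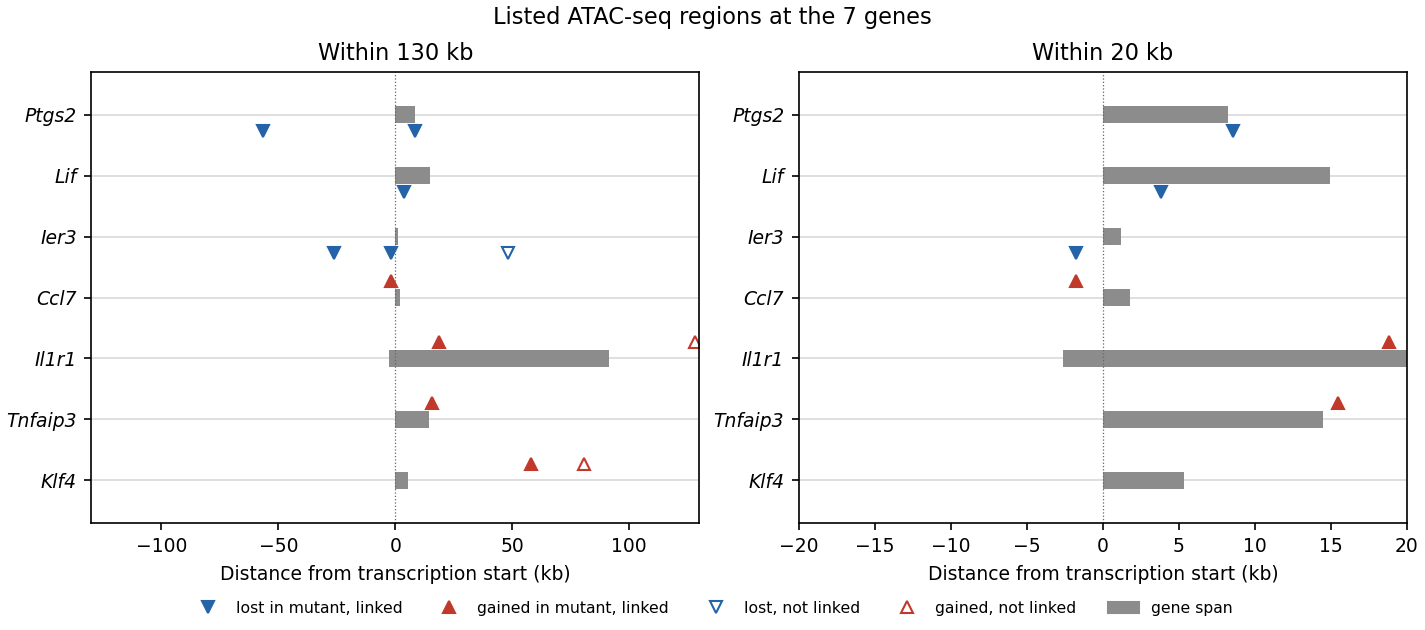
Position of listed regions at the 7 genes, read in the direction of transcription. The horizontal axis is in kb from the farthest upstream start with a promoter entry (for Ccl7, from the lower-coordinate end). Grey bars are gene spans. Downward blue triangles are lost and upward red triangles gained regions, filled where linked to the gene; the regions of Ptgs2 and Tnfaip3 nearest the gene sit just past its end, and those of Ier3 before its start.

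Set beside all regions, the distances of the 7 genes' regions were as follows. Of the 9, 4 were outside a gene but within 2 kb of it (Ptgs2, Tnfaip3, Ccl7 and Ier3, at 0.385 to 1.79 kb), against 55 of 3521 listed regions (1.56%). Inside a gene were 2 of 9 against 1603 of 3521. The bases are unlike, because the 9 were all linked to a gene by the way they were chosen. Of all listed regions, 473 of 556 lost and 2290 of 2965 gained ones were linked. Seen along the gene, 3 of the 5 lost regions stood before the start, 1 inside and 1 past the end. Of the 356 lost links to genes with a known strand, 25.6% stood before the start, 56.5% inside and 18.0% past the end. Of the 3 gained regions with a known strand, 0 stood before the start, 1 inside and 2 past the end, against 22.0%, 60.0% and 18.1% of 1798 gained links. The Ccl7 region, outside its gene on the lower-coordinate side, is left out because Ccl7 had no promoter entry to give a strand. Whether that region stood before the start is not known here. With so few regions these counts describe the loci and show no difference between the directions.

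**Figure D2:**
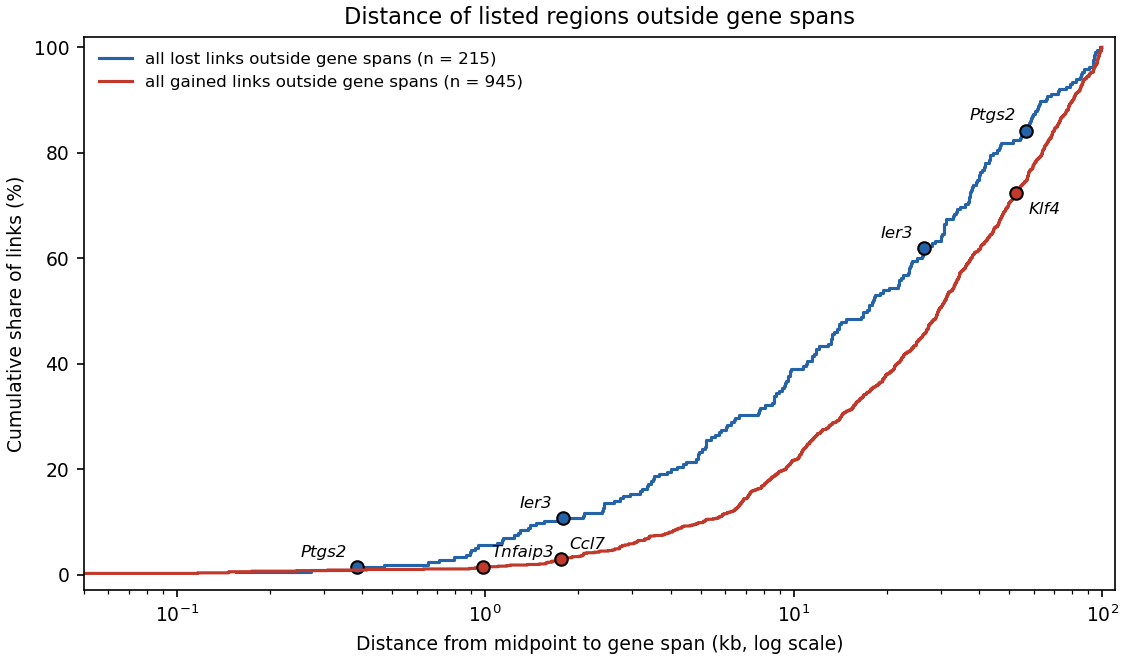
Cumulative share in % of links outside gene spans against the distance in kb (log scale) from region midpoint to gene span. Curves show the links of 215 lost (blue) and 945 gained (red) regions, where a region equally near to more than 1 gene counts once for each. Circles mark the regions of the named genes on their own list's curve; 4 lie below 2 kb.

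The widths of the regions lay well within those of their lists. The lost regions were 773 and 762 bp wide at Ptgs2, 668 and 394 bp at Ier3 and 582 bp at Lif, with a median of 668 bp against 610 bp over the lost list. The gained regions were 922 bp at Il1r1, 812 bp at Tnfaip3, 624 bp at Klf4 and 546 bp at Ccl7, with a median of 718 bp against 572 bp over the gained list. The nearer Ier3 region was narrower than most, with 8.63% of lost regions below it, and the Il1r1 region wider than most, with 88.3% of gained regions below it.

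**Figure D3:**
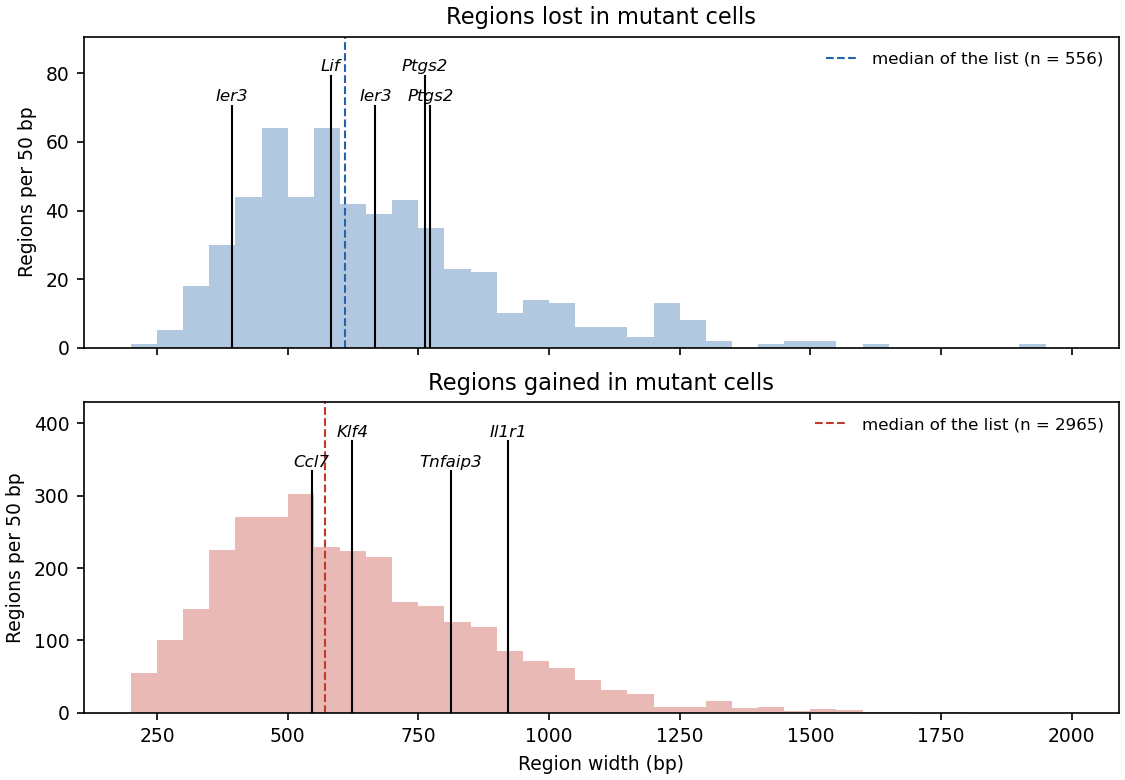
Width in bp (horizontal) of all lost (upper, n = 556) and gained (lower, n = 2965) regions, as regions per 50 bp. Black lines mark the named genes' regions and the dashed line the median of each list; the 9 regions lie between 394 and 922 bp, well inside both distributions.

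The 7 genes themselves were short. Their spans had a median of 8.20 kb (1.20 to 93.7 kb), against 17.2 kb over all protein-coding genes, 57.0 kb over the 436 genes with a lost region and 93.7 kb over the 1591 with a gained region. Their gene neighbourhoods differed widely. Ptgs2, Tnfaip3 and Klf4 had no other protein-coding gene within 100 kb, while Ier3 had 10, Lif 6, Ccl7 5 and Il1r1 3, against a median of 4 over all genes. Position alone does not say which gene a region serves, least of all at Ier3, where the next gene begins 0.409 kb away.

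Within 1 Mb the surroundings carried regions that the linking rule had not assigned to these genes. Around Tnfaip3 there were 6 gained and 0 lost regions, of which 1 gained was its own, and around Klf4 7 gained and 0 lost. Around Ier3 there were 0 gained and 3 lost regions. Lif and Ccl7 stood alone, with no listed region within 1 Mb other than their own. Ptgs2 and Il1r1 were mixed. Around Ptgs2 there were 7 gained and 3 lost, with the gained ones all past the gene, toward and in Pdc and Hmcn1. Around Il1r1 there were 4 gained and 3 lost. Without the genes' own regions, the surroundings of the 4 genes with gained regions held 14 gained and 3 lost. Those of the 3 genes with lost regions held 7 gained, all around Ptgs2, and 2 lost. Over the whole lists 15.8% of regions were lost, and the counts were not tested against that share. Over all protein-coding genes, of which 30.7% had no gained region within 1 Mb, the median was 1 gained and 0 lost. At 14.9% of genes lost regions outnumbered gained ones, and at 56.4% the gained ones were more. Ier3 and Lif were among the former, but 2 of the 3 lost regions at Ier3 and the 1 at Lif were their own. Since these regions chose the genes, nothing is read from that.

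**Figure D4:**
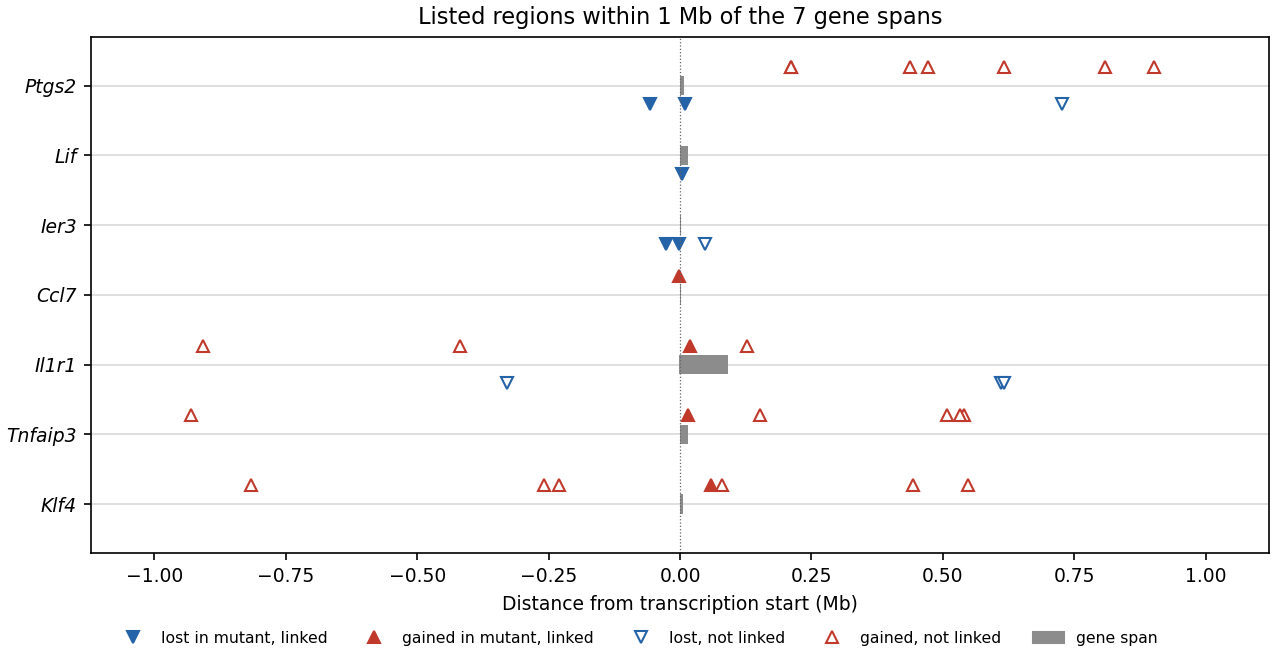
All listed regions within 1 Mb of each gene span, on a horizontal axis in Mb from the start in the direction of transcription; filled triangles are the gene's own regions and open ones are linked to other genes or to none. Red upward triangles (gained) lie on both sides of Tnfaip3 and Klf4. Ier3 has 3 blue downward ones (lost), 2 of them its own, and Lif and Ccl7 have their own region only.

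The pathways around the 7 genes were then read from 6 gene lists with 180 different genes, all found in the annotation. Leaving out the 7, 12 of the other 173 genes were linked to a gained region (6.94%, against 7.27% of all protein-coding genes) and 6 to a lost region (3.47%, against 1.99%). Most of the others, 155, had no listed region. The first share is close to the background and the second rests on 6 genes, so neither is a result about these pathways as a whole. The counts per list given next include the 7 genes, which were chosen for having a region. They stand beside the same 7.27% for gained and 1.99% for lost regions, rest on few genes and were not tested.

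In the prostanoid list of 21 genes, Ptgs2 was the one gene with lost regions (4.76%), and 14.3% had gained ones. Gained regions were linked to 3: Slco2a1, a prostaglandin transporter, with a region inside the gene, and the receptor genes Ptger3 and Ptgfr, with regions at 64.1 and 72.2 kb. The other cyclooxygenase gene, Ptgs1, had none, and neither had Pla2g4a. In the list of 20 genes of the LIF and IL-6 family, Lif had a lost region and Il6st, which encodes the shared receptor chain gp130, a gained one at 20.8 kb.

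In the interleukin-1 and Toll-like receptor list of 22 genes, 3 had gained regions (13.6%, against 7.27% of all genes) and 0 lost ones (against 1.99%). These 3 were Il1r1, itself one of the 7, and 2 others, Il1rl2 and Tlr2. All are receptor genes, and the region of Tlr2 was at 19.6 kb. In the NF-kB list of 37 genes, gained regions were linked to 4 (10.8%) and lost ones to 2 (5.41%). Beside Tnfaip3 the genes with gained regions were Cyld, a deubiquitinase that also restrains the pathway, with a region inside the gene, and Tax1bp1, an adaptor of A20, with a region at 25.1 kb. The last was Tab2, an adaptor of the activating kinase TAK1, with 3 regions at 35.6 to 37.8 kb. The lost regions were those of Nfkbiz, an inducible nuclear regulator of NF-kB, at 1.55 kb and of Tnfaip2 inside the gene. No NF-kB subunit or IkB kinase gene had a region, as was so for most genes (8.90% of all protein-coding genes had any).

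Among 30 CC chemokine and receptor genes, Ccl7 had a gained region and Ccl6 a lost one at 23.7 kb. In the list of 50 immediate early genes, 4 had gained and 4 had lost regions. With Klf4 on the gained side were Zfp36l1, which encodes an mRNA decay factor, with a region at 33.4 kb, Btg1, an antiproliferative gene with regions at 31.7 and 97.7 kb, and Gadd45a, a stress response gene with a region at 40.5 kb. With Ier3 on the lost side were Btg2, a gene related to Btg1, with a region at 9.33 kb, Plk2, the gene of a stress-responsive kinase, with a region at 3.17 kb, and Sgk1, a kinase gene with a region at 85.6 kb. This balance depends on the limit, with 0 gained and 3 lost genes within 10 kb, 8 and 7 with no limit, and 0 and 2 with non-coding genes included. The AP-1 genes (Fos, Fosb, Fosl1, Fosl2, Jun, Junb and Jund) and Egr1 had no linked region of either direction. Only 8.90% of all protein-coding genes had any, so nothing is read from this absence.

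Markers of other cells were counted in the same way, since a fibroblast culture can hold macrophages that use these genes too. Of 17 macrophage and blood markers, 0 had a gained region (7.27% of all genes) and 2 a lost one (1.99% of all genes), Itgam at 11.6 kb and C1qa at 9.19 kb. The lost count was 1 within 10 kb and 1 with non-coding genes included, and 1 marker had a gained region with no limit. Of 13 fibroblast markers, 5 had gained regions (7.27% of all genes) and 0 lost ones (1.99%). These were Dcn, Lum, Fn1, Postn and Fap, of which Lum and Fap had a region within 10 kb. No level of any marker can be read from region lists, and the part of other cells in the regions of the 7 genes was not tested.

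**Figure D5:**
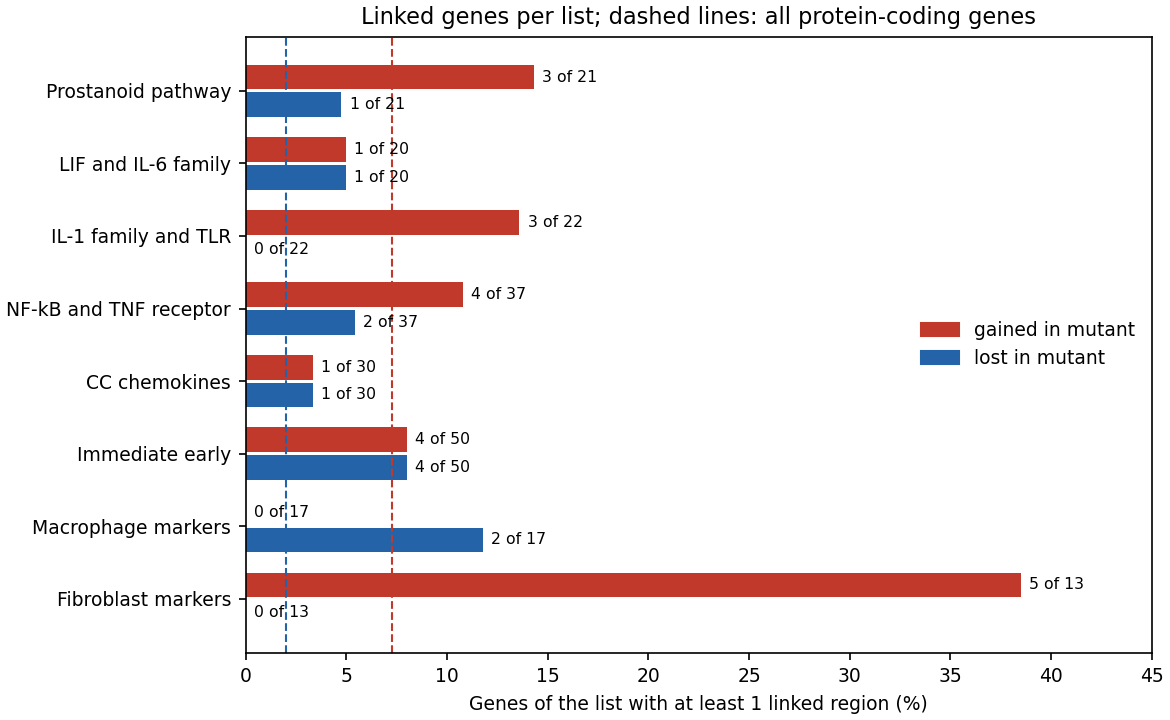
Share in % of each list's genes with at least 1 linked gained (red) or lost (blue) region, with the counts beside the bars; dashed lines mark 7.27% and 1.99%, the shares over all protein-coding genes. Bars rest on 0 to 5 genes each.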

How the data were processed

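ATAC-seq libraries were compared by the authors between 3 FOP mutant and 3 wild-type fibroblast samples. The series text calls them biological replicates; the labels do not say that each had its own embryo. The deposited lists give only positions in base pairs (chromosome, start, end). Per the submitters' processing notes the genome was mm10 (GRCm38), and the tools named are DESeq2, featureCounts, MACS2, Bowtie2, Trimmomatic, SAMtools and bedtools. On versions, parameters, the transposase offset, the list cutoff and any pooling of libraries nothing is given in the sources used here, so a peak missed by the caller or by that cutoff cannot be told from an unchanged one.

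Links, counts and distances were computed with Python 3.11.15 and pandas 2.3.3 from the RefSeq GRCm38.p6 gene table; scipy 1.17.1 gave exact binomial intervals. A midpoint inside several spans was linked to each. Strand and starts came from RefSeq promoter entries (17492 of 21887 genes). The linking was checked on made-up genes and was right for 100% of 200 regions, some of them placed beyond the limit. The made-up genes stood far apart, so overlapping or closely spaced spans were not part of that check. Named genes are the 7 members, list genes with a linked region and genes next to a member or its region; list genes without a region were named after their values were seen. The members and gene lists were chosen with earlier results of these data known. No test across libraries or set test was run, as the lists hold no value per library. The CRE half-site was added after the data were seen. The plan was to use promoter sequence only where a listed region lay over it. That held for none of the 7 genes, so showing and searching their promoters departed from the plan.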

Additional observations from a re-analysis of the deposited data

How the results depend on the processing

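Counts were repeated under 7 other ways of linking. With links within 10 kb, 3 lost regions were left for the 7 genes (Ptgs2 1, Ier3 1 and Lif 1) and Klf4 had none; 6 genes of the 6 lists had a gained region, against 16. With non-coding genes included, 3 lost regions were again left and 7 list genes had a gained region: the far Ptgs2 region, the far Ier3 region and the Klf4 region were then nearer to a pseudogene, a lncRNA and a snoRNA gene. Klf4 had 3 gained regions with no distance limit and 2 by the nearest transcription start. In that setting, genes with no promoter entry, Ccl7 among them, used both gene ends. Single lists moved as well: within 10 kb, gained regions were linked to 1 prostanoid, 0 IL-6 family and 2 NF-kB genes and lost ones to 0 CC chemokine genes. With non-coding genes included the last 3 counts were again 0, 2 and 0. With no limit 2 prostanoid genes had a lost region, and by nearest gene end 2 CC chemokine genes had a gained one. For the counts over the 7 genes and the 6 lists together, links by nearest gene end, by transcription start, by any overlap, with no limit, or with regions within 10 kb merged stayed within 1.5 times. No paired analysis was possible because the lists hold no value per library, and for the same reason no library could be left out. Unknown depth limits every count, since a region not listed may be unchanged or too shallow to call.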
